A study of Psychotria grandis and Psychotria costivenia and Psychotria revoluta with 6 samples.

Results

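The 88 contigs described here were selected on measured values, as those whose level was higher in both leaf libraries of Psychotria grandis than in all 4 leaf libraries of P. costivenia and P. revoluta. A contig is a transcript sequence put together from reads, and levels are CPM, the read count divided by the library total and scaled to 1000000. A contig was taken when its lowest CPM + 1 over the 2 P. grandis plants was at least 4 times its highest CPM + 1 over the other 4 plants. Of 45143 contigs, 88 met this rule (0.195%). The rule used the same libraries that are described below, so the difference between P. grandis and the other species is given as a description, without a test.

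P. grandis and P. costivenia were labelled nickel hyperaccumulators and P. revoluta a non-accumulator. Each species was represented by leaves of 2 wild plants from Cuba, with 1 library a plant, and all 6 grew on serpentine soil in gallery forest. P. grandis was sampled at Mil Cumbres on 27 June 2014. P. revoluta came from the same locality, plant 2 on that day and plant 1 on 27 July 2014, and P. costivenia from La Coca on 12 June 2014. P. costivenia therefore differed from both other species in locality and date as well as in species, and these cannot be told apart. This holds for P. costivenia against P. revoluta too. All contigs came from P. grandis, since the series names its transcriptome, assembled from 1 plant, as the reference for every species.

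Nickel hyperaccumulators are plants that take up nickel from metal-rich soils, such as those on serpentine, and keep it in their leaves at concentrations that harm most plants. In such plants the metal is moved to the shoot and largely stored in leaf vacuoles, where organic acids such as citrate can bind it. The contigs carry running numbers and no gene name or sequence in the files used here, so no contig could be assigned to metal transport, to any other role or to a leaf cell type, and the leaf origin could not be checked against marker genes. Contig lengths were not used here either, so that an order of contigs by CPM ranks reads and not amounts of transcript. In leaf tissue, fewer cells of a type and less RNA per cell cannot be told apart. Reads of P. costivenia and P. revoluta were counted on P. grandis sequence, and a lower count from poorer matching of reads cannot be told apart from a lower amount of transcript.

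The smallest library was P. grandis plant 2, with 45676087 counts, and the largest P. revoluta plant 1, with 57907913. For a contig without reads the limit is taken as 3 counts, or 0.0518 to 0.0657 CPM in a single library. The P. grandis plants stood further apart than those of the other species. Of contigs with at least 3 CPM in both plants of a species, 9.56% differed at least 4-fold on the CPM + 1 scale between the P. grandis plants, 0.432% between the P. costivenia plants and 0.231% between the P. revoluta plants. Reads fell on 45142 contigs in P. grandis plant 1 and on 37455 in plant 2. The header of the count column carried another species prefix than the label in both P. revoluta libraries, and the species of the labels was used.

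As a group, the 88 contigs made up 1.12% of the reads counted in P. grandis plant 1 (95% exact binomial interval 1.117% to 1.122%) and 0.312% in plant 2 (0.3099% to 0.3131%). Their share was 0.0182% and 0.0156% in the P. costivenia plants (0.01784% to 0.01862% and 0.01528% to 0.01599%). It was 0.0198% and 0.0164% in the P. revoluta plants (0.01949% to 0.02021% and 0.01609% to 0.01681%). These intervals cover counting error only, and not the spread between plants. With no molecular identifiers, several reads may come from 1 molecule, so that the intervals may be too narrow for counting error as well. The median contig had 38.7 and 18.0 CPM in the leaves of P. grandis, 0.449 and 0.228 CPM in P. costivenia and 0.794 and 0.697 CPM in P. revoluta. Mean levels in P. grandis were under 10 CPM for 19 contigs, 10 to 100 CPM for 52 and at least 100 CPM for 17. Outside P. grandis, 37 contigs stayed under 1 CPM in every library, and 10 reached at least 10 CPM in some library. The highest level outside P. grandis was in P. revoluta plant 1 for 33 contigs and plant 2 for 17. It was in P. costivenia plant 2 for 11. The remaining 27 were counted for P. costivenia plant 1. Of these, 3 had 0 counts in all 4 other plants and so no highest library.

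**Figure D1:**
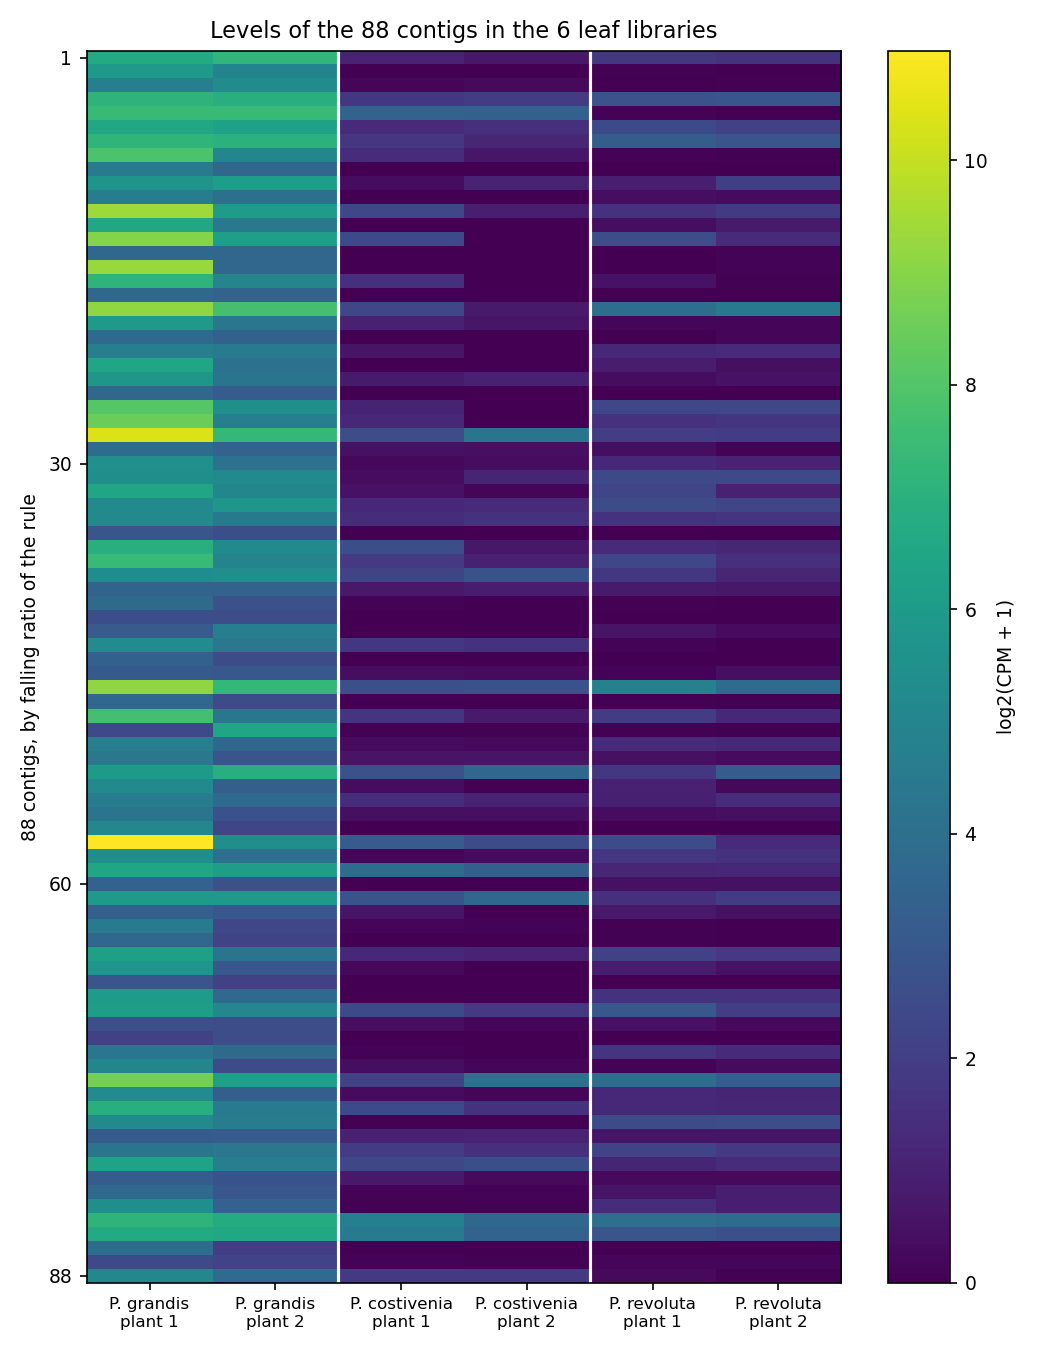
Levels of the 88 contigs (rows, by falling ratio of the rule) in the 6 leaf libraries (columns) as log2(CPM + 1), with white lines between species. The left pair of columns, P. grandis, is brighter in every row, as the rule requires, and plant 1 holds the brightest cells, up to 2009 CPM.

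The ratio that defined the group had a median of 5.74 and reached 30.6. It was under 5 for 36 contigs and at least 8 for 28. The 3 contigs just inside the rule were Pgra_v1_contig_11039 at a ratio of 4.01, Pgra_v1_contig_20155 at 4.01 and Pgra_v1_contig_12262 at 4.03. Just outside it were Pgra_v1_contig_3163 at 3.97, Pgra_v1_contig_2910 at 3.93 and Pgra_v1_contig_14597 at 3.93. With 89 contigs at a ratio of 3 to 4 and 36 at a ratio of 4 to 5, levels passed through the threshold without a gap.

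**Figure D2:**
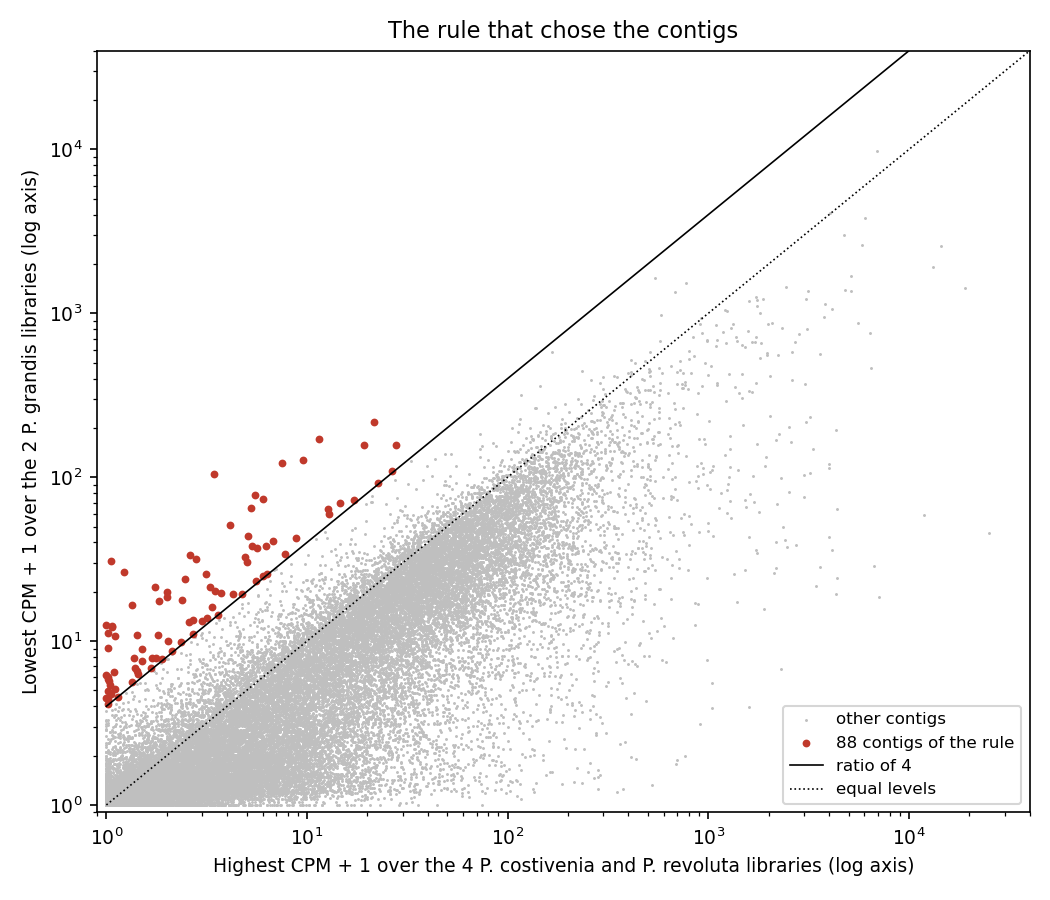
The lowest CPM + 1 over the 2 P. grandis libraries against the highest CPM + 1 over the 4 other libraries, both on log axes, for every contig. The 88 contigs lie on or above the solid line (ratio of 4), at ratios up to 30.6, and the dotted line marks equal levels.

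For each of the 6 contigs with the largest ratios of the rule, the levels in the P. grandis plants lay within 2-fold. Pgra_v1_contig_2698, which had the largest ratio, had 104 and 147 CPM in P. grandis plants 1 and 2, 1.05 and 0.621 CPM in P. costivenia and 2.44 and 2.01 CPM in P. revoluta. Both P. grandis plants were thus far above a low but countable level in all 4 other plants. Pgra_v1_contig_8135 had 58.5 and 29.8 CPM in P. grandis, had no count in P. costivenia or in P. revoluta plant 2, and stood at 0.0518 CPM in P. revoluta plant 1. That last value is 3 counts, the limit that a count of 0 allows, so this contig was close to unread outside P. grandis. Pgra_v1_contig_2865 had 25.5 and 38.6 CPM in P. grandis, 0.150 and 0.228 CPM in P. costivenia and 0.0173 and 0.0410 CPM in P. revoluta. The rule places P. grandis on top, and of the other species both P. costivenia plants were above both P. revoluta plants.

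The next contigs by ratio were well read in both P. costivenia plants too. Pgra_v1_contig_4152 had 140.1 and 122 CPM in P. grandis, 2.46 and 2.79 CPM in P. costivenia and 5.94 and 6.54 CPM in P. revoluta. Pgra_v1_contig_5025 had 171 and 174 CPM in P. grandis, and 10.4 and 9.73 CPM in P. costivenia, and it was at 0.0691 CPM (4 counts) in P. revoluta plant 1 and at 0 counts in plant 2. Pgra_v1_contig_8702 had 93.2 and 77.3 CPM in P. grandis, 1.58 and 1.88 CPM in P. costivenia and 4.49 and 3.44 CPM in P. revoluta. The rule places P. grandis on top in each of these contigs. Both P. revoluta plants were above both P. costivenia plants in Pgra_v1_contig_4152 and Pgra_v1_contig_8702, and below them in Pgra_v1_contig_5025.

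Other contigs combined a high level in P. grandis with a clear level elsewhere. Pgra_v1_contig_739 had the highest lower value of the P. grandis plants, with 561 and 215 CPM there, 4.06 and 0.745 CPM in P. costivenia and 14.5 and 20.5 CPM in P. revoluta. Pgra_v1_contig_821 had 564 and 157 CPM in P. grandis, 5.50 and 5.75 CPM in P. costivenia and 26.9 and 13.1 CPM in P. revoluta, the highest level of any of the 88 outside P. grandis. Pgra_v1_contig_142 had 1335 and 157 CPM in P. grandis, 5.004 and 18.2 CPM in P. costivenia and 3.02 and 2.77 CPM in P. revoluta. In these 3 contigs plant 1 was the higher P. grandis plant, and the level of plant 2 set the ratio of the rule. Pgra_v1_contig_2911 was more even, with 144 and 126 CPM in P. grandis, 2.37 and 1.26 CPM in P. costivenia and 8.55 and 6.37 CPM in P. revoluta.

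Contigs with consecutive numbers formed 3 pairs among the 88. Whether such contigs belong to 1 gene or share reads was not tested, and their counts are uncertain if they are near-identical. Pgra_v1_contig_38 had 102 and 91.0 CPM in P. grandis, 21.7 and 9.79 CPM in P. costivenia and 6.44 and 5.41 CPM in P. revoluta. Its neighbour Pgra_v1_contig_39 had 141 and 107 CPM in P. grandis, 25.6 and 11.5 CPM in P. costivenia and 15.8 and 13.6 CPM in P. revoluta. Both were highest outside P. grandis in P. costivenia plant 1. Pgra_v1_contig_212 and Pgra_v1_contig_213 shared a lead of plant 1, with 169 and 29.4 CPM for the former and 404 and 71.3 CPM for the latter in P. grandis. The third pair was unlike: Pgra_v1_contig_8968 had 62.7 and 116 CPM in P. grandis, and 2.44 to 11.7 CPM in the 4 other plants, whereas Pgra_v1_contig_8969 had 12.6 and 9.74 CPM in P. grandis, and 0 to 0.102 CPM elsewhere. Low contig numbers were common in the group, with a median number of 5317 against 9297 over the 15803 contigs of at least 3 CPM in both P. grandis plants, the minimum that the rule forces. What the numbering follows is not given in the sources used here.

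Most of the 88 contigs were higher in P. grandis plant 1 than in plant 2. Plant 1 was the higher for 76 of the 88 (86.4%), against 45.8% of the 15803 contigs of at least 3 CPM in both plants. The median log2 ratio of plant 1 to plant 2, on the CPM + 1 scale, was 0.92 for the 88 contigs and -0.10 for the 15803. Scaling by TMM (trimmed mean of M-values) in place of library totals, a choice made after the values were seen, raised these medians to 1.12 and 0.09 and the share of contigs higher in plant 1 to 90.9% (80 contigs) and 53.5%. With 1 library a plant the difference between plants has no replicate check, and the plants also enter the rule, so no test was made. The reference was assembled from 1 P. grandis plant, and reads fell on 45142 contigs in plant 1 and on 37455 in plant 2. A difference between the plants cannot be told apart from an origin of the reference in plant 1.

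The plants lay within 2-fold of each other for 45 of the 88 contigs (51.1%), against 65.2% of the 15803. They lay at least 4-fold apart for 23 contigs (26.1%), against 9.56%, and plant 1 was the higher in 22 of the 23. These 22 contigs had medians of 154 CPM in plant 1 and 21.3 CPM in plant 2, and they made up 66.8% of the counts of the 88 contigs in plant 1 and 22.7% in plant 2. In plant 1 most reads of the group thus came from these 22 contigs.

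Among contigs that leaned to plant 1, Pgra_v1_contig_1080 stood at 614 CPM there and at 11.2 CPM in plant 2, had no count in 3 of the 4 other plants and stood at 0.0615 CPM (3 counts) in P. revoluta plant 2. Pgra_v1_contig_819 held the highest level of the group, 2009 CPM in plant 1, with 41.5 CPM in plant 2, 7.81 and 4.70 CPM in P. costivenia and 4.63 and 1.52 CPM in P. revoluta. This 1 contig made up 17.9% of the counts of the 88 contigs in plant 1. Pgra_v1_contig_811 had 361 and 24.8 CPM in P. grandis, 1.43 and 0 CPM in P. costivenia and 1.95 and 2.13 CPM in P. revoluta. In each of these 3 contigs plant 1 was more than 10-fold above plant 2.

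**Figure D3:**
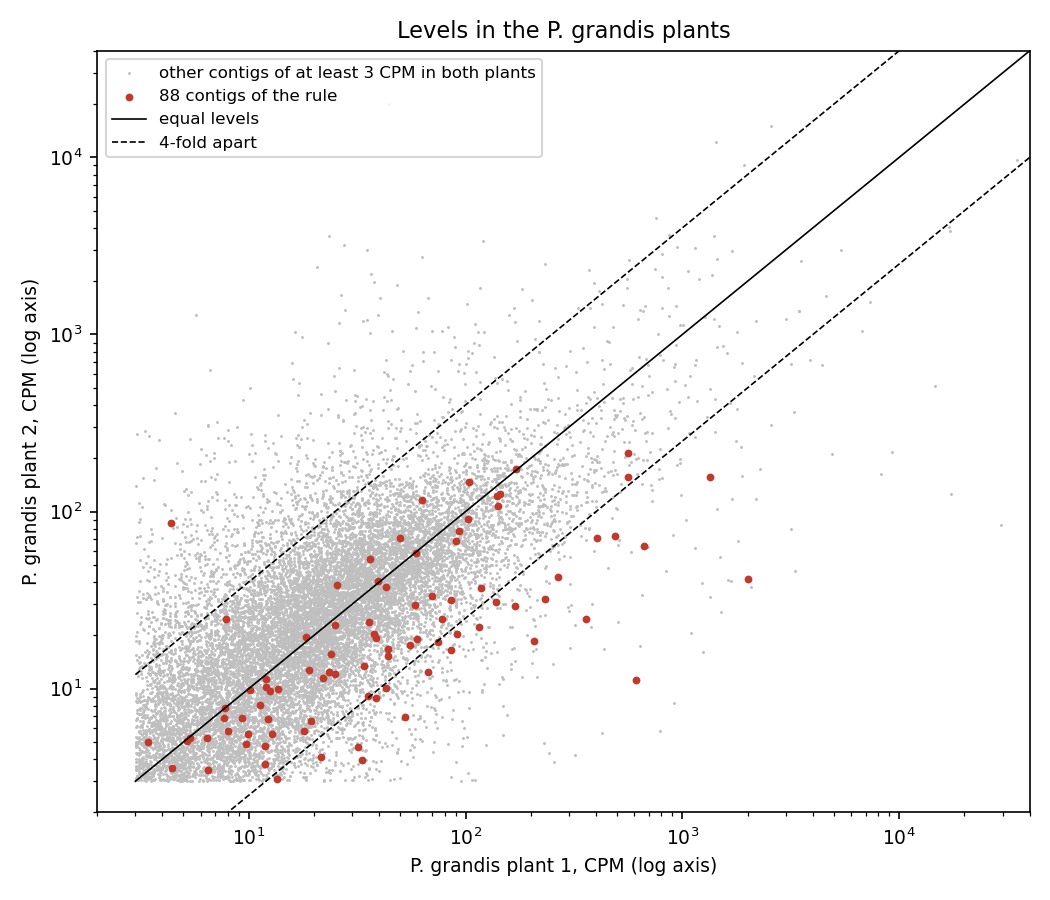
CPM in P. grandis plant 2 against plant 1, on log axes, for the 88 contigs and for the other contigs of at least 3 CPM in both plants. Of the 88, 76 lie below the line of equal levels and 22 are at least 4-fold higher in plant 1 on the CPM + 1 scale, while 1 lies as far on the other side.

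The opposite lean was rare. Pgra_v1_contig_11133 stood at 4.39 CPM in plant 1 and 86.6 CPM in plant 2, and at 0.0428, 0.0414, 0.0345 and 0 CPM in P. costivenia plants 1 and 2 and P. revoluta plants 1 and 2. It was the only one of the 88 that was at least 4-fold higher in plant 2 on the CPM + 1 scale. Pgra_v1_contig_5190 had 7.89 and 24.7 CPM in P. grandis, 0 counts in both P. costivenia plants and 0.501 and 0.246 CPM in P. revoluta. Only these 2 contigs were at least 2-fold higher in plant 2 on that scale.

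Reads were found in all 6 libraries for 53 of the 88 contigs, and for 35 no library had fewer than 10 counts. The number with 0 counts was 17 and 28 in P. costivenia plants 1 and 2, and 7 and 16 in P. revoluta plants 1 and 2. Both P. costivenia plants had 0 counts for 15 contigs, of which 12 were read in P. revoluta. Both P. revoluta plants had 0 counts for 5 contigs, of which 2 were read in P. costivenia. Low levels outside P. grandis are what the rule asked for, so that these numbers describe the group and are no finding about it.

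No count at all outside P. grandis was found for 3 contigs. Pgra_v1_contig_3272 had 22.1 and 11.5 CPM in P. grandis plants 1 and 2, Pgra_v1_contig_25295 had 6.45 and 5.23 CPM, and Pgra_v1_contig_14599 had 6.51 and 3.48 CPM. All 3 values in P. grandis plant 1 were above those in plant 2.

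The difference between P. costivenia and P. revoluta was not used by the rule, and its test asked whether the 88 contigs were also at different levels in these species, a hyperaccumulator and the non-accumulator from different localities. The quasi-likelihood test of edgeR was used on all 6 libraries. Its spread was estimated over all of them, so the P. grandis plants, which stood furthest apart, also set the p-values. These were adjusted by the Benjamini-Hochberg method over the 35660 contigs tested, with a threshold of 0.05. All 88 contigs passed the filter on low counts, 21 of them through P. grandis alone, where the rule made them high, and 1 of these 21 was called. By this test 6 of the 88 contigs (6.82%) were higher in P. costivenia, where 10.8% of all tested contigs were, and 12 (13.6%) were lower, where 6.80% were. The 18 contigs called are 20.5% of the 88, and 17.6% of all contigs were called, but the 88 include the 21 that could hardly be called. Of the 67 that passed the filter in the other species, 5 (7.46%) were higher and 12 (17.9%) lower, where 11.7% and 7.38% of the 32733 contigs that passed there were. Together 17 of the 67 (25.4%) were called, against 19.0% of the 32733. The larger share of contigs lower in P. costivenia depended on the model. Without the P. grandis libraries 18 of the 67 were lower, close to the 27.0% of the 32733 that were. limma-voom called 1 of the 88 lower, where it called 5.52% of all contigs, while DESeq2 called 21, where it called 17.0%. The median log2 fold change of P. costivenia over P. revoluta was -0.22 for the 88 contigs and -0.001 for all tested contigs, over fitted values that depend on the prior count where a species has no reads. Library totals in place of TMM moved these medians to -0.52 and -0.29.

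Both P. costivenia plants lay above both P. revoluta plants, by CPM of the library totals, for 22 of the 88 contigs (25.0%), against 36.1% of the 15803 contigs of at least 3 CPM in both P. grandis plants. The reverse held for 32 contigs (36.4%), against 45.6%. Under TMM scaling the numbers were 23 and 31 of the 88, and the shares of the 15803 contigs changed places, at 46.0% and 35.1%. At least 10 counts in all 6 libraries were found for 39.8% of the 88 and 95.8% of the 15803. Contigs with few or no reads outside P. grandis can seldom show either order, so the 88 and the 15803 are not on an equal footing.

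The contigs higher in P. costivenia had log2 fold changes of 2.24 to 8.30 and reached 0.228 to 13.6 CPM outside P. grandis. Pgra_v1_contig_5025, given above at 10.4 and 9.73 CPM in P. costivenia against 4 and 0 counts in P. revoluta, differed by 8.30 on the log2 scale (edgeR, SE 0.88, adjusted p = 0.0191). This size rests on the 4 counts: the value was 7.39 without P. revoluta plant 2, and 12.11 without P. revoluta plant 1, where no count was left in that species and the fitted value depends on the prior count. Pgra_v1_contig_3597 had 90.2 and 68.4 CPM in P. grandis, 13.6 and 9.11 CPM in P. costivenia and 1.24 and 1.41 CPM in P. revoluta, and edgeR gave it a log2 fold change of 3.38 with an SE of 0.39 (adjusted p = 0.0191). For both contigs the rule places P. grandis on top. Both P. costivenia plants were above both P. revoluta plants, as they were by CPM for 36.1% of the 15803 contigs given above. Pgra_v1_contig_7840 showed the same order, with 38.7 and 19.3 CPM in P. grandis, 2.48 and 1.93 CPM in P. costivenia and 0.0691 and 0 CPM in P. revoluta, from 4 and 0 counts (edgeR log2 fold change 6.12, SE 1.10, adjusted p = 0.0278). Its log2 fold change likewise moved to 5.20 without P. revoluta plant 2 and to 9.92 without P. revoluta plant 1, again with no count left.

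Pgra_v1_contig_2865 rested on few reads outside P. grandis, with 7 and 11 counts in P. costivenia and 1 and 2 in P. revoluta. The ratio of pooled CPM was 6.73 (95% counting interval 1.97 to 35.7), and 11.0 without P. revoluta plant 2. It is the called contig that passed the filter on low counts through P. grandis alone, and the model without the P. grandis libraries did not test it, so its values are a description and its p is not given. Pgra_v1_contig_11039, at 33.9 and 13.4 CPM in P. grandis, stood at 2.59 and 2.50 CPM in P. costivenia and at 0.225 and 0.0410 CPM in P. revoluta (edgeR log2 fold change 4.51, SE 0.95, adjusted p = 0.0358), with a log2 fold change of 6.13 without P. revoluta plant 1 and 3.74 without P. revoluta plant 2. The sixth, Pgra_v1_contig_4005, had 59.2 and 58.3 CPM in P. grandis, 6.16 and 11.8 CPM in P. costivenia and 1.76 and 2.89 CPM in P. revoluta (log2 fold change 2.24, adjusted p = 0.0352 by edgeR). It was named after its values were seen.

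**Figure D4:**
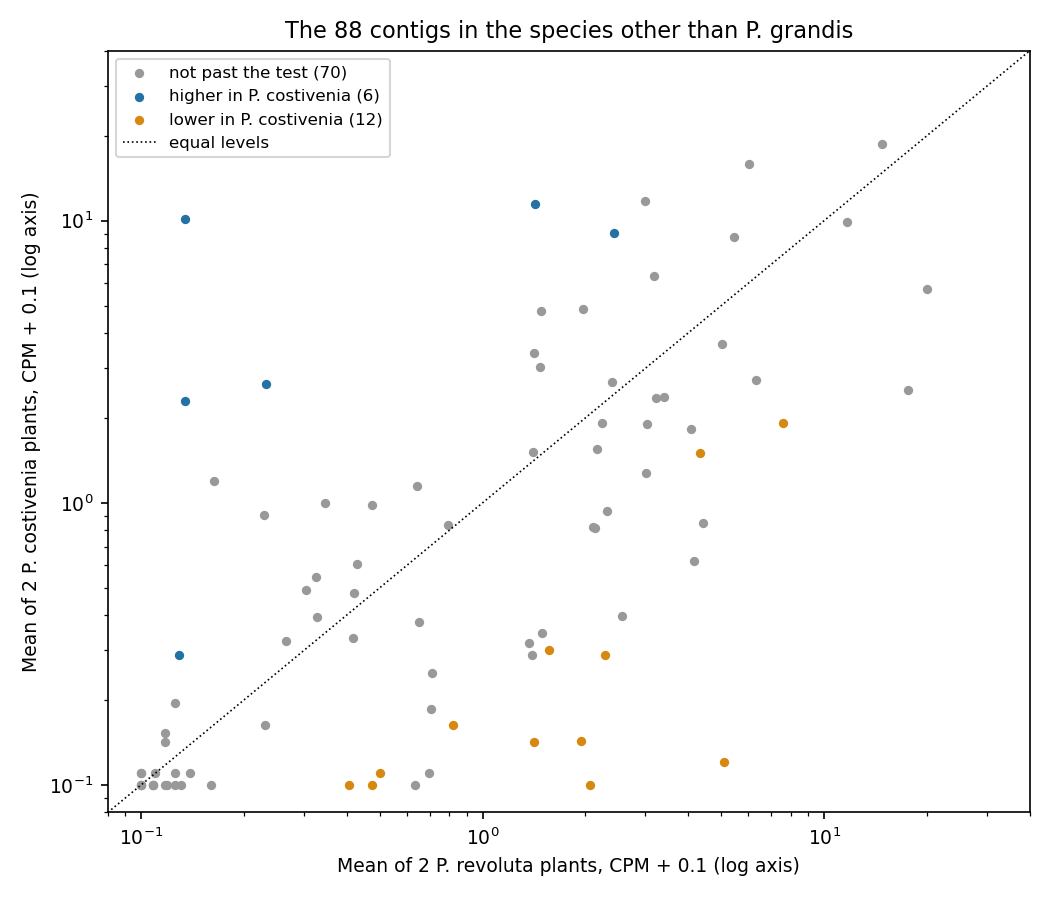
Mean CPM + 0.1 of the 2 P. costivenia plants against that of the 2 P. revoluta plants, on log axes, for the 88 contigs. Blue marks the 6 contigs higher and orange the 12 lower in P. costivenia by edgeR (adjusted p of at most 0.05). Grey marks the 70 that did not pass, and the dotted line equal levels. Of the 6, Pgra_v1_contig_2865 passed the filter on low counts through P. grandis alone, so its place is a description.

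Of the 12 contigs lower in P. costivenia, 3 had no count in that species, 2 had 1 to 3 counts and 7 had more. The 7 had log2 fold changes of -5.07 to -1.31. The value of -5.07 belongs to Pgra_v1_contig_6100, named after its values were seen, and rests on 4 counts in P. costivenia plant 1 and 0 in plant 2. It was -4.09 without P. costivenia plant 2, and -9.49 without P. costivenia plant 1, where no count was left in that species and the fitted value depends on the prior count. Pgra_v1_contig_1435 had the smallest adjusted p, with 35.9 and 23.9 CPM in P. grandis, 4.92 and 5.04 CPM in P. revoluta and 1 count in each P. costivenia plant. P. revoluta was higher there by a ratio of pooled CPM of 237 (95% counting interval 65.2 to 1959, adjusted p = 0.0179 by edgeR). Pgra_v1_contig_4214 had 66.9 and 12.3 CPM in P. grandis, and 1.93 and 1.99 CPM in P. revoluta, and had no count in P. costivenia. Set against 3 counts over both P. costivenia plants, 0.0316 CPM, it was at least 62.2-fold higher in P. revoluta (adjusted p = 0.0377 by edgeR). The plants of each species were close to each other in these contigs outside P. grandis, while P. grandis plant 1 was well above plant 2 in Pgra_v1_contig_4214.

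Pgra_v1_contig_3211 had 23.9 and 15.7 CPM in P. grandis, 0.345 and 0.266 CPM in P. revoluta and 0 counts in P. costivenia, and was at least 9.7-fold higher in P. revoluta by the same limit (adjusted p = 0.0270 by edgeR). For Pgra_v1_contig_5190, given above, P. revoluta was at least 11.8-fold higher than P. costivenia (adjusted p = 0.0405 by edgeR), and at least 7.8-fold higher without P. revoluta plant 1. Without P. costivenia plant 1 or plant 2 the limit of 3 counts falls on a single library, which lowered these bounds to 31.6 or 30.6 for Pgra_v1_contig_4214, 4.93 or 4.77 for Pgra_v1_contig_3211 and 6.01 or 5.82 for Pgra_v1_contig_5190. Pgra_v1_contig_2911 was read in all plants and was lower in P. costivenia, at -1.74 on the log2 scale (edgeR, SE 0.41, adjusted p = 0.0433). With P. grandis on top by the rule, both P. revoluta plants were above both P. costivenia plants in these contigs. This held by CPM for 45.6% of the 15803 contigs too, and is the reverse of Pgra_v1_contig_5025 and Pgra_v1_contig_3597.

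Contigs with the highest ratios that did not pass this test included Pgra_v1_contig_2698 (edgeR log2 fold change -1.12, SE 0.35, adjusted p = 0.0779) and Pgra_v1_contig_4152 (edgeR log2 fold change -0.96, SE 0.28, adjusted p = 0.0673). The value for Pgra_v1_contig_739 was -2.57 on the log2 scale (edgeR, SE 0.96, adjusted p = 0.111). Its P. costivenia plants differed from each other at 4.06 and 0.745 CPM, and the value was -4.26 without P. costivenia plant 1 and -1.81 without plant 2. Pgra_v1_contig_8702 did not pass either (edgeR log2 fold change -0.90, SE 0.31, adjusted p = 0.0952). The tools differed for Pgra_v1_contig_2698, Pgra_v1_contig_4152 and Pgra_v1_contig_739. Their adjusted p was 0.0337, 0.0498 and 0.0254 by DESeq2, and 0.181, 0.176 and 0.0973 by limma-voom.

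The calls between P. costivenia and P. revoluta depended on the plants and the tool. Counts of the 88 given here include the 21 that passed the main filter through P. grandis alone, except where 67 are named. They are set against all contigs tested. With either P. costivenia plant or either P. revoluta plant omitted, 0 contigs passed in edgeR. At an unadjusted p of at most 0.05, 9 of the 88 were then higher and 24 lower without P. costivenia plant 1 (13.3% and 8.20% of all contigs), and 10 and 15 without plant 2 (13.1% and 8.56%). Without P. revoluta plant 1 they were 11 and 15 (10.3% and 7.28%), and without plant 2 they were 7 and 18 (10%, or 4043 of 40254, and 8.97%). Without P. grandis plant 1, edgeR called 15 of the 88 higher and 21 lower at an adjusted p of at most 0.05, where it called 25.7% and 23.3% of all contigs, and without plant 2 it called 12 and 21, where it called 18.9% and 20.4%. Without both P. grandis plants, 67 of the 88 passed the filter and 13 were higher and 18 lower, where 29.3% and 27.0% of the 32733 contigs tested were. With the replicate number as a block, 2 of the 88 were higher and 2 lower, where 1.80% and 0.939% of all contigs were. With all plants, limma-voom called 2 of the 88 higher and 1 lower, where it called 9.80% and 5.52% of all contigs, and DESeq2 called 12 higher and 21 lower, where it called 21.0% and 17.0%.

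Which contigs met the rule turned mostly on P. grandis plant 2. Without that plant 1408 contigs met it, and without plant 1 there were 124. The rule then holds for 1 plant of the species, so that contigs high in a single P. grandis plant also count. The reference from 1 P. grandis plant limits this comparison of the plants too. Without P. costivenia plant 1 or plant 2 the number was 134 or 118, and without P. revoluta plant 1 or plant 2 it was 113 or 97. A library left out can only add contigs, and the 88 were among those found each time. The same rule applied to the other species gave 300 contigs higher in both P. costivenia plants than in all others (0.665% of the 45143) and 18 higher in both P. revoluta plants (0.0399%). The plants were at least 4-fold apart for 1 of those 300 contigs and for 0 of the 18, against 23 of the 88 in P. grandis. As the contigs came from P. grandis, the numbers for the species are not on an equal footing.

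**Figure D5:**
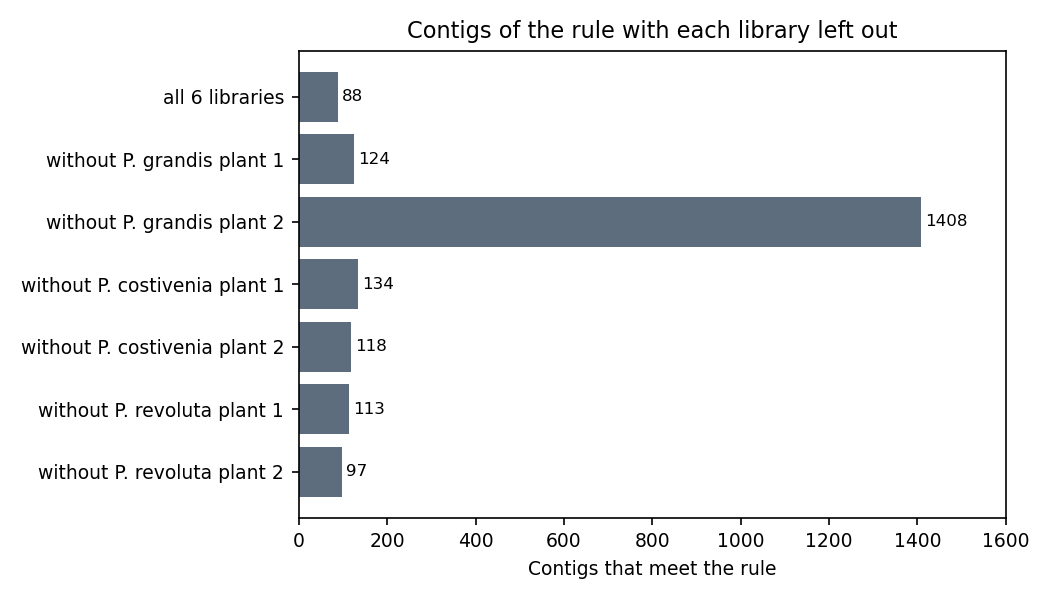
Number of contigs that met the rule with all 6 libraries and with each library left out in turn. Leaving out P. grandis plant 2 gave 1408 contigs, and leaving out any other library gave 97 to 134, against 88 with all libraries.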

How the data were processed

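Leaf RNA of 6 wild plants, 2 a species, was sequenced from stranded polyA libraries, per the labels' protocols. The authors deposited raw read counts per contig, 1 table a plant, with a de novo assembly of 1 P. grandis plant as the reference, per the series design text. For the assembler, aligner, counting tool, strand setting and reads matching several contigs, the sources used here state nothing. Library totals gave CPM and the rule of 4-fold on CPM + 1. P. costivenia was compared with P. revoluta in R 4.3.3 with edgeR 4.0.16 (filterByExpr by species, minimum count 10 and minimum total 15, TMM, glmQLFit and glmQLFTest, robust, species as the factor, 6 libraries, two-sided). Residual degrees of freedom were 3, and prior ones had a median of 2.43. SE is the absolute log2 fold change over the square root of F. DESeq2 1.42.0 and limma 3.58.1 served as alternatives. Ratios on 1 to 3 counts have exact binomial counting intervals. The test was checked on simulated data with the same spread in every library. That check did not cover the larger spread between the P. grandis plants. No fold is given where both species had at most 3 counts.

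The members, lists and tests were chosen with earlier results of these data known. Named were contigs with the highest lower P. grandis level (6) and the largest ratio (6), the largest difference between P. grandis plants (3 each way), the contigs next to the threshold (3 on each side), the smallest adjusted p between P. costivenia and P. revoluta (4 each way), the highest levels without reads elsewhere (3) and the highest levels outside P. grandis (4), besides pairs with consecutive numbers, which were added after the values were seen. The plants are independent per the series design text. The p-values rest on a spread between 2 plants a species that was estimated over all species, including P. grandis, whose plants stood furthest apart.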

Additional observations from a re-analysis of the deposited data

How the results depend on the processing

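The number of contigs that met the rule stayed within 1.5 times the 88 under TMM (70, all among the 88) and DESeq2 size factors (64, of which 63 were among the 88). It moved to 394 with CPM + 0.1, 28 with a ratio of 8 and 507 with a ratio of 2. Contigs without counts outside P. grandis then numbered 71, 1 and 18, those higher in P. grandis plant 1 numbered 336, 24 and 448, those with both P. costivenia plants above both P. revoluta plants numbered 82, 6 and 139, and the reverse 90, 13 and 184. For the contigs with P. costivenia above P. revoluta the number was 14 under TMM and 13 under DESeq2 size factors, where the rule chose fewer contigs. By library totals, 36.1% and 45.6% of the 15803 contigs of at least 3 CPM in both P. grandis plants had these orders. Under TMM these shares were 46.0% and 35.1%. No shares over all contigs were computed to match the altered rules, so these counts describe the groups only. Leaving out each library in turn gave 97 to 1408 contigs by the rule and 4 to 36 without counts outside P. grandis. Leaving out each P. costivenia or P. revoluta library gave 83 to 118 higher in P. grandis plant 1.

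Between P. costivenia and P. revoluta, edgeR called 3855 contigs higher and 2426 lower, 6 and 12 of them among the 88. DESeq2 called 7491 and 6065, with 12 and 21 of the 88. limma-voom called 2 and 1 of the 88. A model without the P. grandis libraries called 9603 and 8842 of 32733 (29.3% and 27.0%), with 13 of the 88 higher and 18 lower among the 67 that passed its filter. Library totals, RLE scaling and no filter kept all 4 counts within 1.5 times. Leaving out each library in turn gave 0 to 9200 higher and 0 to 8334 lower contigs, with 0 to 15 and 0 to 21 of the 88. Each such fit assumed that the remaining plant of a species varies like those of the others. The cause of these shifts was not tested. The contigs called include Pgra_v1_contig_2865, which passed the filter on low counts through P. grandis alone. Of the 10 contigs called and named by the rule for names, 7 lost the call in limma-voom, 7 with the replicate number as a block and all 10 without either P. costivenia plant or either P. revoluta plant. Signs were followed through the alternative fits only for named contigs among the 88, and not for those named from just outside the threshold. Of the contigs followed, only Pgra_v1_contig_39, which was not called, turned sign. Leaving out each library in turn, its log2 fold change ran from -0.067 without P. costivenia plant 1 to 1.10 without P. costivenia plant 2.

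The plants of different species share only a number in the labels. The difference of plant 1 and plant 2 had a correlation across contigs of -0.013 between P. costivenia and P. revoluta, 0.108 between P. grandis and P. costivenia and -0.25 between P. grandis and P. revoluta. With the replicate number as a block, edgeR called 641 contigs higher and 335 lower (1.80% and 0.939%), with 2 and 2 of the 88. For the 14 of the 88 contigs with at most 3 counts in each of the other species, a difference between those species was not detectable at this depth.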
